A study of Mus musculus with 6 samples.

Results

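Ligands on the surface of myeloid cells decide how a T cell that meets antigen responds. Blood monocytes of mice with and without thrombocytopenia were compared here for 7 genes of this kind: Cd40, Cd80, Cd83, Cd86, Cd274, Pdcd1lg2 and Icosl. They were chosen by symbol for their role as costimulatory or inhibitory ligands, by a rule that uses no measured value. Earlier results of these data were known when the choice was made. All 7 were found among the 56832 genes in the count files, and all 7 passed the filter on low counts, as did 12488 genes in all. The cells came from peripheral blood, and polyadenylated RNA was sequenced in 6 libraries. The thrombocytopenic group (3 libraries) carried the genotype PF4cre-iDTR, and the control group (3 libraries) was wild type. Diphtheria toxin is listed as the treatment of both groups. The sources used here do not give the age or sex of the mice or the dose of the toxin.

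In PF4cre-iDTR mice, Cre recombinase driven by the promoter of Pf4, a gene of megakaryocytes and platelets, switches on a receptor for diphtheria toxin, so that the toxin kills the cells that carry it. The toxin receptor and Cre are missing from the wild type controls, so genotype and platelet loss cannot be told apart. Pf4 RNA itself was abundant in the profiled cells, at 1095 ± 38.8 CPM in the thrombocytopenic group and 924 ± 23.4 CPM in the control group (CPM, counts scaled to library size with TMM factors; mean ± SD, n = 3 each). Of 12 platelet and megakaryocyte markers 5 were tested: Pf4 and Ppbp rose, and Itga2b (log2 fold change -1.27), Itgb3 (-0.90) and Gp9 fell. Gp9, the gene of a platelet glycoprotein, had no count in the thrombocytopenic libraries and 9, 17 and 15 in the controls, and Gp1bb had none in any library. The whole list summed to 1220 to 1286 CPM against 1007 to 1052 CPM in controls, most of it Pf4. Whether Cre was active in these cells was not tested.

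A T cell needs a signal through its antigen receptor and a second, costimulatory signal to become fully active. CD80 and CD86, both members of the B7 family, give that second signal through CD28, and they restrain the T cell through CTLA-4. PD-L1 (Cd274) and PD-L2 (Pdcd1lg2) bind the inhibitory receptor PD-1, ICOS ligand (Icosl) binds ICOS, and CD40 receives CD40 ligand from the T cell and in turn raises costimulation by the myeloid cell. CD83 is a surface protein of mature dendritic cells that protects CD86 and MHC class II from the ubiquitin ligase MARCH1.

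Library totals ranged from 24842319 to 37552029 counts. The labels do not tie each library to its own animal, so the p-values cover library-to-library spread only, and that spread may be technical. By the test described below, 22.4% of all genes tested were higher and 22.7% lower in the thrombocytopenic group. All 10 monocyte markers were tested, and 7 were higher and 3 lower. Their sum was 20250 to 20480 CPM against 17720 to 18130 CPM in controls, most of it the lysozyme gene Lyz2. Csf1r and Lyz2 were higher by 0.27 and 0.19 on the log2 scale, while the fractalkine receptor gene Cx3cr1 was at 11.4 ± 0.374 CPM against 52.2 ± 1.10 CPM (-2.19), Ly6c2 at a log2 fold change of -0.49 and Fcgr1 at -0.34. Of 10 macrophage markers 8 were lower, among them Mertk (-1.51), Apoe (-1.45) and the abundant Gpnmb (-0.51). The 2 higher were Mrc1 (0.77) and Adgre1 (0.28), the last being on the monocyte list too. In thrombocytopenic and control libraries Gpnmb was at 3176 and 4512 CPM, Adgre1 at 3285 and 2712 CPM, and Ly6c2 at 67.9 and 95.1 CPM. The labels name the cells isolated monocytes, and how far they had become macrophages was not tested. Macrophage markers summed to 8152 to 8423 CPM against 9964 to 10070 CPM. Of 10 neutrophil markers 7 were tested, 2 higher (Mmp8 and Mmp9), 1 lower (Ngp) and 4 not past the threshold. The call of Ngp was lost under 4 of 14 other settings. S100a9 was called lower under 5 of 15 and Ltf under 5 of 14. Without thrombocytopenic library 3 their edgeR adjusted p was 1.26e-05 and 6.54e-07. The sum of the 10 markers was 353 to 364 CPM against 245 to 262 CPM. Most of it was Mmp8, at 322.5 CPM in thrombocytopenic and 227.3 CPM in control libraries. Ly6g, a defining gene, was below 0.05 CPM in both groups. The part of these shifts in the ligand results was not tested. The T cell genes Cd3d, Cd3e and Cd3g and the NK cell gene Ncr1 had no count in any library. The 10 T and NK cell markers summed to 2.31 to 3.14 CPM in thrombocytopenic and 2.42 to 3.22 CPM in control libraries. The 10 B cell markers summed to 2.40 to 2.63 CPM against 6.06 to 6.76 CPM. Most of this in the controls was Cd22, at 1.05 ± 0.188 CPM against 4.84 ± 0.223 CPM, and Cd79b stood at 1.34 ± 0.283 CPM against 1.40 ± 0.299 CPM, while Ms4a1 and Pax5 were each below 0.05 CPM in both groups. The part of B cells in the results below was not tested. In bulk RNA, fewer cells of a type and less RNA per cell cannot be told apart.

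Of the 7 ligand genes, 4 fell in thrombocytopenic mice (Cd86, Cd83, Cd274 and Cd40), 2 rose (Cd80 and Icosl) and 1, Pdcd1lg2, did not pass the test. The test was edgeR's quasi-likelihood test with Benjamini-Hochberg adjustment over all genes tested and a threshold of 0.05. In the same comparison 45.1% of all genes tested were called, 22.4% higher and 22.7% lower. These shares are also the background for the counts over the gene lists below. The median log2 fold change of the 7 was -0.08, against -0.00077 over all genes tested. The groups did not overlap for 5 of the 7, 1 higher and 4 lower; of all genes tested 51.3% did not overlap, 25.2% higher and 26.0% lower. Differences were larger than 1.5-fold for Cd86 alone. Over the 7 genes the summed level was 1715, 1691 and 1667 CPM in the thrombocytopenic libraries and 2002, 1958 and 1970 CPM in the control libraries. That sum was mostly Cd274, which made up 50.2% to 52.1% of the counts of the 7 genes in thrombocytopenic libraries and 55.3% to 56.3% in controls.

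**Figure D1:**
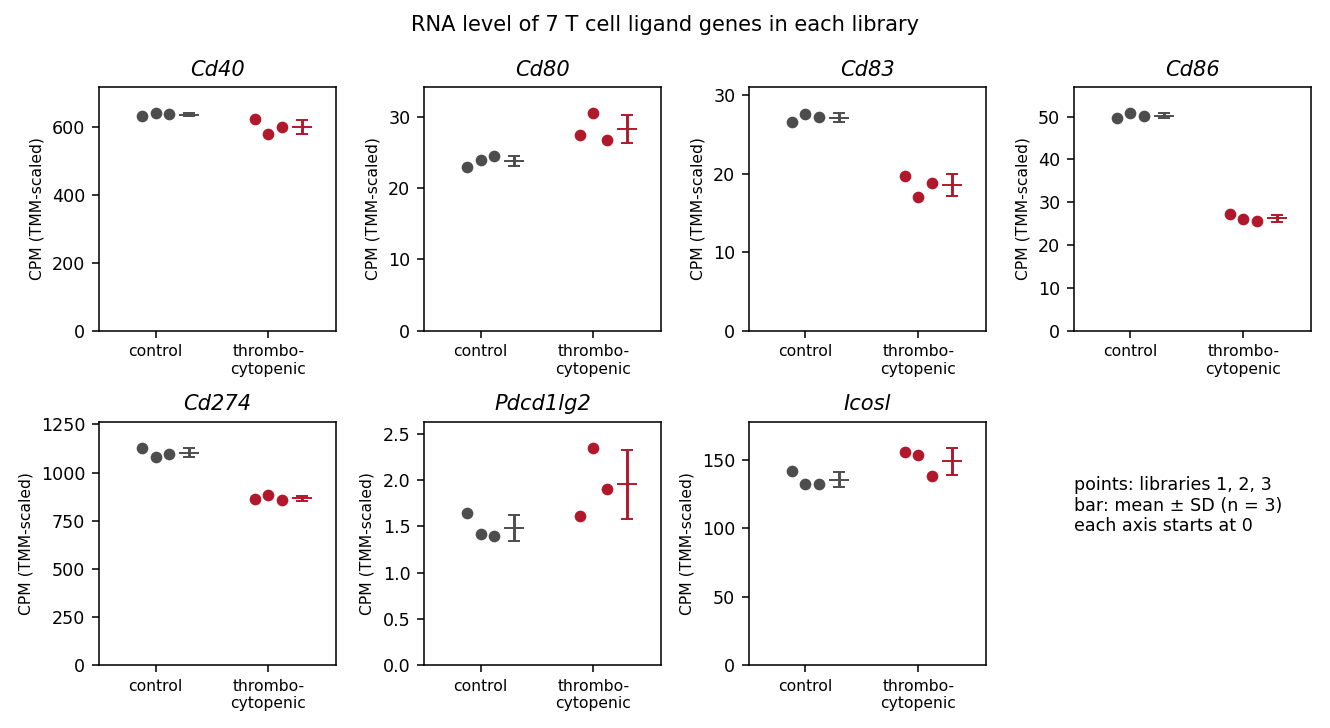
RNA level (CPM scaled by TMM factors, vertical axes from 0) of each ligand gene in the 3 control and 3 thrombocytopenic libraries, with mean ± SD beside the points. The groups lie apart for Cd40, Cd80, Cd83, Cd86 and Cd274 and overlap for Pdcd1lg2 and Icosl.

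Cd86 showed the largest difference of the 7. It stood at 27.2, 26.0 and 25.6 CPM in thrombocytopenic libraries 1 to 3 and at 49.7, 50.8 and 50.2 CPM in control libraries 1 to 3. Every thrombocytopenic library was far below every control library, and the SD within each group was below 1 CPM. The mean fell from 50.2 ± 0.534 to 26.3 ± 0.797 CPM, which was 1.91-fold lower (log2 fold change -0.93, SE 0.046; edgeR adjusted p = 2.64e-24). Only 4.54% of all genes tested had a larger absolute log2 fold change.

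Cd80, the other ligand of CD28 and CTLA-4, moved the opposite way. It stood at 27.5, 30.5 and 26.8 CPM in the thrombocytopenic libraries and at 23.0, 23.9 and 24.5 CPM in the controls. The groups did not overlap, but thrombocytopenic library 3 was close to control library 3. The rise was 1.18-fold (log2 fold change 0.24, SE 0.055; edgeR adjusted p = 0.000234). Its size ranged from 0.19 to 0.28 on the log2 scale when each library was left out in turn.

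The 250 bases before a RefSeq start of Cd80 are shown because this gene rose while the other CD28 ligand fell (RefSeq, GRCm38.p6, chr16:38458683-38458932, plus strand). Capitals mark 2 matches to GGGNNNNNCC, the outline of a site for NF-kB, found on either strand.
Cd80: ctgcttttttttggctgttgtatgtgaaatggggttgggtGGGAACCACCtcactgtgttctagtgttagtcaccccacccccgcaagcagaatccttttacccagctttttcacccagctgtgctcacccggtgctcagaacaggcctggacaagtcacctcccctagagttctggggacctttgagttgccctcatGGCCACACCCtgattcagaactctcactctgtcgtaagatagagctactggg
The matches lie at -210 to -201 and, on the other strand, at -52 to -43, where -1 is the last base before the start. Such a match is common: 45.8% of 32851 RefSeq promoter windows of 250 bases hold at least 1. The table of promoters held 4 of the 7 genes (Cd80, Cd274, Pdcd1lg2 and Icosl).

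Because Cd86 fell and Cd80 rose, their ratio within a library shifted. There were 1.01, 1.17 and 1.04 Cd80 counts for each Cd86 count in the thrombocytopenic libraries and 0.463, 0.471 and 0.488 in the controls. This ratio does not depend on how libraries are scaled. It was 2.27-fold higher in the thrombocytopenic group, a difference of 1.18 on the log2 scale, with log2 means of 0.10 ± 0.11 and -1.08 ± 0.038 (SD, n = 3 each). The exact two-sided permutation test over libraries gave p = 0.1, the smallest that 3 against 3 libraries allow, and 0.1 after Benjamini-Hochberg adjustment over the 4 ratios computed.

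The order of the levels changed as well. Levels of different genes were compared per kilobase of exon in the GENCODE M21 annotation, which may differ from the annotation the counts were made with. In control libraries Cd86 was at 13.6 to 13.9, Cd83 at 10.4 to 10.8 and Cd80 at 6.23 to 6.62 CPM per kilobase, with no overlap between neighbours. In thrombocytopenic libraries the same 3 genes lay on top of each other, with Cd80 at 7.23 to 8.22, Cd83 at 6.61 to 7.62 and Cd86 at 7.01 to 7.38 CPM per kilobase. The other members kept their places in both groups. Cd274 was highest at 236 to 312 CPM per kilobase over all libraries, followed by Cd40 at 170 to 188 and Icosl at 28.7 to 33.5, with Pdcd1lg2 lowest at 0.712 to 1.20. Cd274 and Cd40 ranked 145th and 246th of 12054 tested genes with a length on this scale.

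Cd83 fell together with Cd86. It stood at 19.7, 17.0 and 18.9 CPM in the thrombocytopenic libraries against 26.6, 27.7 and 27.2 CPM in the controls, and the groups were well separated. The level was 1.46-fold lower (log2 fold change -0.55, SE 0.057; edgeR adjusted p = 8.41e-12). Cd83 is also a marker of mature dendritic cells, and dendritic markers moved the same way. Over all genes tested 22.7% were lower. Of 12 dendritic markers 9 were tested, and 8 of them were lower and none higher. Their summed level was 419 to 467 CPM in thrombocytopenic libraries and 574 to 655 CPM in controls, most of it Ccl22, a chemokine gene that macrophages can express too. Ccr7, the chemokine receptor gene of migrating dendritic cells, was at 15.2 ± 1.34 CPM against 28.0 ± 1.83 CPM. The defining genes Flt3 (0.695 against 1.71 CPM), Zbtb46 (0.414 against 1.21 CPM) and Clec9a (0.243 against 0.437 CPM) were near the floor in both groups, and no dendritic marker was at 0 in every library. The part of such cells in the falls of Cd83 and Cd86 was not tested.

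The RNA of the ubiquitin ligase that removes CD86 and MHC class II from the cell surface rose. Marchf1 went from 145 ± 5.22 to 220 ± 5.86 CPM (difference 0.60 on the log2 scale, SE 0.030; edgeR adjusted p = 9.61e-24), while its relative Marchf8 was lower by a log2 fold change of -0.19. In a list of 11 genes for turnover, trafficking and shedding of these ligands, 3 rose, 3 fell and 5 did not pass. Cmtm6, whose protein keeps PD-L1 from being degraded, was not called (log2 fold change -0.01), with 210 ± 3.31 CPM in thrombocytopenic and 210 ± 7.02 CPM in control libraries. The sheddase gene Adam17 rose by 0.12 on the log2 scale, and Adam10, which also sheds surface proteins, had a log2 fold change of -0.06. The call of Adam10 was lost under 10 of 15 other settings, among them scaling by RLE (edgeR adjusted p = 0.0505).

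**Figure D2:**
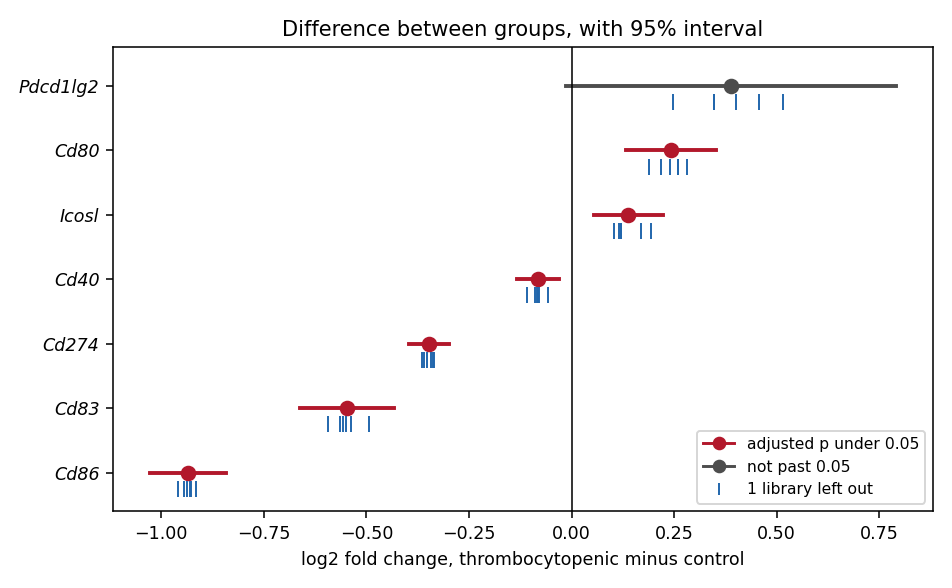
Log2 fold change of each ligand gene (thrombocytopenic minus control, horizontal axis) with its 95% interval, and below each the values when 1 library was left out. Cd86, Cd83 and Cd274 lie far below 0, Cd40 lies close to 0, and the interval of Pdcd1lg2 from -0.01 to 0.79 spans 0.

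Cd274, the gene of PD-L1 and the most abundant of the 7, fell. It stood at 862, 882 and 857 CPM in the thrombocytopenic libraries and at 1128, 1083 and 1098 CPM in the controls, with a wide gap between the groups. The mean went from 1103 ± 22.5 to 867 ± 13.2 CPM, 1.27-fold lower (log2 fold change -0.35, SE 0.024; edgeR adjusted p = 4.84e-18). In GENCODE M21 a gene model on the opposite strand, AC119228.1, shares exonic bases with Cd274. The symbol AC119228.1 is not among the genes counted. The strand setting of the counting is unknown, so reads of this model cannot be told from those of Cd274.

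Pdcd1lg2, the gene of PD-L2 and the next protein-coding gene after Cd274 on chromosome 19, was scarce. Its counts were 60, 70 and 68 in the thrombocytopenic libraries and 41, 51 and 40 in the controls, or 1.61, 2.35 and 1.90 CPM against 1.65, 1.42 and 1.39 CPM. Thrombocytopenic library 1 lay within the range of the controls, and the other 2 lay above it. The log2 fold change of 0.39 (SE 0.20; 95% interval -0.01 to 0.79; edgeR adjusted p = 0.113) did not pass the test. The interval holds no change as well as a rise of over 1.5-fold, so at this depth the direction could not be determined.

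The windows before the starts of these neighbours are shown because both encode ligands of PD-1 and differ widely in RNA per kilobase (RefSeq, GRCm38.p6, plus strand; Cd274 at chr19:29367188-29367437 and Pdcd1lg2 at chr19:29410669-29410918). Capitals mark matches, on either strand, to GGGNNNNNCC, to TTCNNNNGAA, the outline bound by STAT6, and to GAAANNGAAA, the outline bound by interferon regulatory factors.
Cd274: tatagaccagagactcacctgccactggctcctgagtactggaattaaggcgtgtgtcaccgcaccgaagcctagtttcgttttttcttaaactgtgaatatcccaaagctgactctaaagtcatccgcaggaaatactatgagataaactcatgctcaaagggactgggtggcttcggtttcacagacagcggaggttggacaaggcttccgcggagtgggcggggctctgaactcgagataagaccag
Pdcd1lg2: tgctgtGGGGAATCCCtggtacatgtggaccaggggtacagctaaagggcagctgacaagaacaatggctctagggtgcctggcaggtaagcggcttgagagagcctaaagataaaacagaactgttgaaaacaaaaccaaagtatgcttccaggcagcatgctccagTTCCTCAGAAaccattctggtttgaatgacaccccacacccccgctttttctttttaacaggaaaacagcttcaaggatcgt
The Pdcd1lg2 window holds GGGGAATCCC at -244 to -235, which reads as a match on both strands, and TTCCTCAGAA at -82 to -73. The Cd274 window holds no exact match to any of the 3 outlines, and sites that depart from an outline were not searched for. Among all 32851 windows, 5.85% hold TTCNNNNGAA and 2.98% hold GAAANNGAAA, and neither the window of Cd80 nor that of Icosl holds either of them. The Icosl window holds 2 matches to GGGNNNNNCC.

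The balance of the PD-1 ligands shifted within libraries. There were 536, 376 and 451 Cd274 counts for each Pdcd1lg2 count in the thrombocytopenic libraries and 684, 765 and 788 in the controls, with no overlap. The ratio was 1.66-fold lower in the thrombocytopenic group (log2 difference -0.73; exact permutation p = 0.1, the smallest possible). It rests on the few Pdcd1lg2 counts given above. Against Cd274, Cd80 was higher by 0.59 on the log2 scale and Cd86 had a log2 difference of -0.59 in the thrombocytopenic group, again without overlap and with an exact permutation p of 0.1 each. Each Cd274 count was matched by 0.031 to 0.035 Cd80 counts in thrombocytopenic libraries and by 0.020 to 0.022 in controls, and by 0.030 to 0.032 and 0.044 to 0.047 Cd86 counts.

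**Figure D3:**
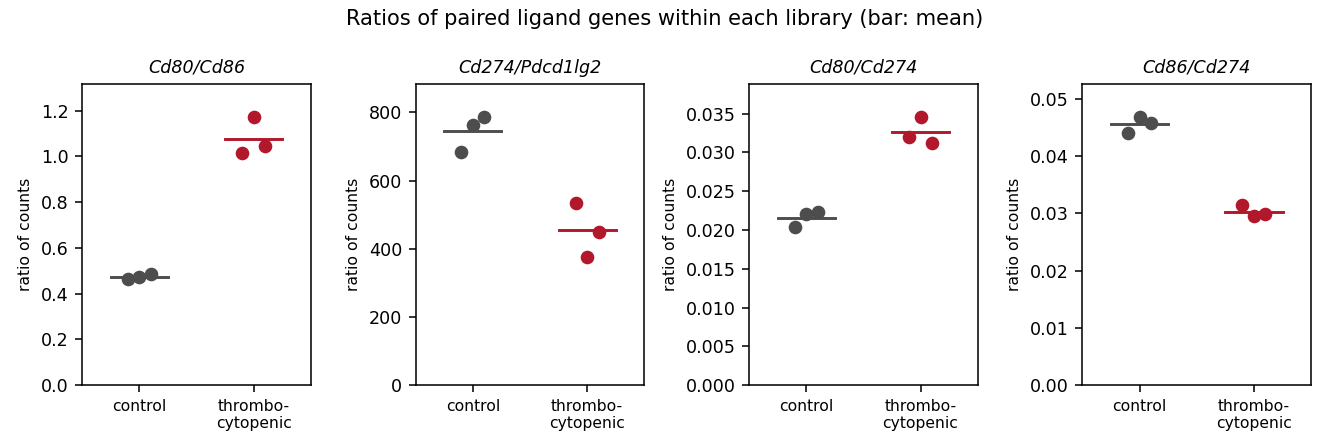
Ratio of the counts of 2 ligand genes within each library (vertical axes from 0), with the group mean as a bar. Cd80 to Cd86 and Cd80 to Cd274 were higher, and Cd274 to Pdcd1lg2 and Cd86 to Cd274 lower, in all 3 thrombocytopenic libraries than in any control library.

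Interferon gamma is the classical inducer of PD-L1, acting through JAK kinases and IRF1. Of 10 genes on this route 5 fell, 1 rose and 4 did not pass. The kinase gene Jak2 was at 568 ± 17.8 CPM in thrombocytopenic and 668 ± 5.24 CPM in control libraries (log2 fold change -0.23), and for Irf1 the log2 difference was -0.26. The receptor chain gene Ifngr1 was the exception and rose from 52.8 ± 0.985 to 75.2 ± 1.95 CPM (0.51). The median over the list was -0.07.

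PD-L2 is induced in macrophages by interleukin 4 through STAT6. Of 12 genes of that receptor, of Stat6 and of genes it induces, 10 were tested, and 3 rose, 5 fell and 2, Stat6 and Il13ra1, did not pass. Stat6 passed under 3 of 15 other settings (edgeR adjusted p = 0.0121 with upper quartile scaling and 0.0497 with library totals). Il13ra1 passed under 1 of 15, upper quartile scaling (0.042). Il2rg, the gene of the shared receptor chain, had a log2 fold change of -0.38. Mrc1, the mannose receptor gene, rose from 162 ± 13.5 to 276 ± 3.93 CPM, while Arg1, arginase 1, fell from 125 ± 5.51 to 26.8 ± 7.80 CPM. Chemokine genes of this list split, with Ccl22 at a log2 fold change of -0.42. The genes of this list lay on both sides.

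Icosl, the gene of ICOS ligand, was slightly higher. It stood at 156, 153 and 138 CPM in the thrombocytopenic libraries against 142, 132 and 132 CPM in the controls. Thrombocytopenic library 3 lay below control library 1, so the groups overlapped. The log2 fold change was 0.14 (SE 0.040; edgeR adjusted p = 0.00747), and without control library 2 the call was lost (0.12; adjusted p = 0.0624).

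Cd40 fell by a small margin. It stood at 622, 580 and 599 CPM in the thrombocytopenic libraries and at 632, 639 and 636 CPM in the controls. The groups did not overlap, but thrombocytopenic library 1 was close to the lowest control. The difference was 1.06-fold (log2 fold change -0.08, SE 0.026; edgeR adjusted p = 0.00688), and 70.1% of all genes tested had a larger absolute one. Without thrombocytopenic library 2 it no longer passed (-0.06; adjusted p = 0.0849).

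Of 17 adaptor and NF-kB genes downstream of CD40, 15 were called, 9 higher and 6 lower, where 45.1% of all genes tested were called. The median log2 fold change of the list was 0.13. Rel rose from 189 ± 3.58 to 275 ± 3.76 CPM (0.54), Tnfaip3, the gene of the NF-kB inhibitor A20, from 615 ± 10.4 to 775 ± 18.5 CPM (0.33), and Birc3, whose protein binds TRAF2, from 288 ± 16.2 to 366 ± 6.99 CPM (0.35). Among the TRAF adaptors Traf2, Traf3, Traf5 and Traf6 fell, with log2 fold changes of -0.16, -0.22, -0.55 and -0.14, and Traf1 at -0.06 did not pass (edgeR adjusted p = 0.0785). Traf1 passed under 3 of 15 other settings (edgeR adjusted p = 0.0104 with upper quartile scaling and 0.0488 with library totals). The TRAF genes were named after their values were seen. Nfkb1, the most abundant gene of the list at 885 ± 9.08 CPM against 871 ± 2.20 CPM, did not pass.

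Ligands outside the 7 were as mixed. Of 6 further B7 and butyrophilin genes 2 were tested. Vsir, the gene of the inhibitory ligand VISTA, rose from 53.7 ± 1.74 to 69.1 ± 1.94 CPM (log2 fold change 0.36), and Cd276, the gene of B7-H3, fell from 1.97 ± 0.178 to 0.718 ± 0.322 CPM (-1.48). Btn1a1 and Btn2a2 had no count in any library. Of 7 ligands of the TNF family 4 were tested, 2 higher and 2 lower. Tnfsf9, the gene of 4-1BB ligand, rose by 0.29 on the log2 scale, a call lost without control library 2 (0.17; adjusted p = 0.11), while Tnfsf15 (-0.46) and Tnfsf8 (-1.34), the gene of CD30 ligand, fell. Tnfsf4, the gene of OX40 ligand, was at 1.75 ± 0.285 CPM against 1.19 ± 0.268 CPM (edgeR adjusted p = 0.0429) and lost its call under 8 of 15 other settings, DESeq2 among them (adjusted p = 0.108).

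Of 12 other ligands of costimulatory or inhibitory T cell receptors 10 were tested, 3 higher, 5 lower and 2 not past the threshold. Sema4a, a semaphorin gene whose protein costimulates, was at 159 ± 6.70 CPM in thrombocytopenic and 262 ± 8.04 CPM in control libraries (log2 fold change -0.72). Lgals9, the gene of galectin 9, a ligand of TIM-3, fell from 402 ± 6.15 to 335 ± 3.50 CPM (-0.26). Icam1, the gene of the adhesion ligand of LFA-1, rose from 667 ± 10.8 to 916 ± 30.3 CPM (0.46). Nectin2, whose protein binds DNAM-1 and TIGIT, was lower (named after its values were seen), while Pvr, which encodes a further ligand of both, had 64.9 ± 0.763 CPM in thrombocytopenic and 67.4 ± 2.32 CPM in control libraries and was not called.

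**Figure D4:**
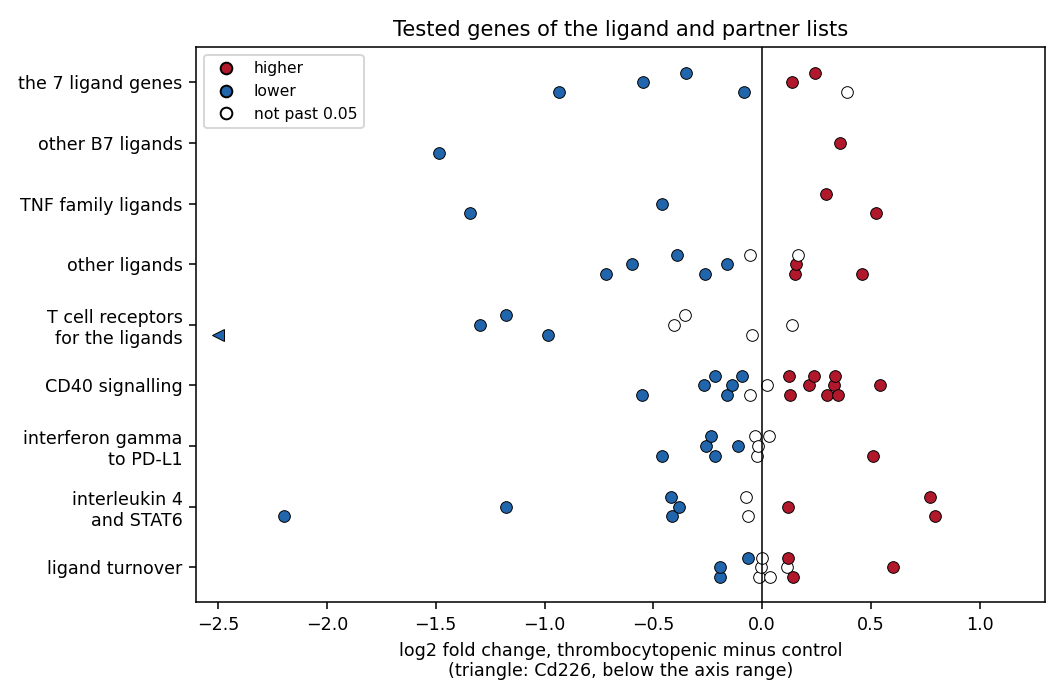
Log2 fold change (thrombocytopenic minus control, horizontal axis) of every tested gene of the 7 ligands and of 8 partner lists (rows), coloured by call. Most rows hold genes on both sides of 0, while no T cell receptor gene was called higher.

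Receptors through which T cells read these ligands were scarce in the monocyte libraries. Of 13 such genes 8 were tested, 4 lower, none higher and 4 not past the threshold. Cd40lg and Tigit had no count in any library, and Ctla4, Icos and Cd27 did not pass the filter. Cd28 was at 0.334 ± 0.105 CPM against 0.842 ± 0.289 CPM and Pdcd1, the gene of PD-1, at 0.821 ± 0.101 CPM against 1.88 ± 0.139 CPM (log2 fold change -1.18). Havcr2, the gene of TIM-3, which myeloid cells also express, fell from 11.3 ± 0.619 to 5.62 ± 1.16 CPM (-0.99). Cd226, the gene of DNAM-1, had 1, 1 and 4 counts in the thrombocytopenic libraries against 98, 144 and 128 in the controls. Cd3d, Cd3e and Cd3g were at 0 in the same libraries.

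Genes whose pattern over the 6 libraries was most like that of each member were found by the root mean square difference between centred log2 CPM profiles, among 8793 candidates (8794 for Pdcd1lg2). Nearest to Cd86 were Anpep, the gene of aminopeptidase N, Blnk, a B cell linker gene also used in macrophages, and F7, coagulation factor VII, with differences of 0.037, 0.037 and 0.038. Nearest to Cd274 were Tcirg1, a proton pump gene (0.012), Hp1bp3 and Cyb5r3. Nearest to Cd83 were the cyclin gene Ccnb1 (0.026), Hfe and Parvb, and nearest to Cd80 were Gdap2, Erg28, a gene of sterol synthesis, and Ppt2 (0.025 to 0.030). Cd40 lay nearest to Stxbp3, Calr and Slfn2, and Icosl to Sppl3, Card9 and Rpl31. The nearest gene to Pdcd1lg2, Tanc2, was at 0.10, farther than for any other member. With 6 libraries in 2 groups this likeness mostly describes a like difference between groups.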

How the data were processed

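Each of the 6 libraries has 1 file of unnormalized counts for each gene, as deposited by the authors. The submitters' processing notes name STAR 2.7.9a, featureCounts (Subread 2.0.1), Salmon 1.5.2 and fastp 0.23.1, without their roles; genome build, annotation and strand setting were not given in the sources used. Counts were fitted over all genes with edgeR 4.0.16 in R 4.3.3 (filterByExpr with a minimum count of 10, TMM scaling, robust quasi-likelihood fit, group as the only term), and the steps were tested on simulated data. SE is the absolute log2 fold change over the square root of F. CPM are TMM-scaled, also in the sum over the 7 members. Sums over marker lists and CPM per kilobase are on library totals. The members were named by symbol and not by their values. Both they and the gene lists were chosen with earlier results of these data known, and medians and counts over lists carry no test. Partner genes named are the 3 with the smallest p and the 2 with the highest mean CPM in each list; Irf1, Arg1, Cmtm6, Cd28, Pvr, Flt3, Zbtb46 and Clec9a, and others marked so or completing a count, were named after their values were seen. Some genes that meet the rule were left out. Similar genes needed a mean of 5 CPM. Genes with fewer than about 1 CPM rest on few counts. Other settings tried were DESeq2 1.42.0, limma-voom (limma 3.58.1), scaling by RLE, upper quartiles or library totals, a fit without the robust option, no filter and a stricter filter, a replicate block, and each library left out.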

Additional observations from a re-analysis of the deposited data

How the results depend on the processing

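Of the 15 alternatives, all 15 kept direction and call for Cd80, Cd83, Cd86 and Cd274, with log2 fold changes of 0.19 to 0.28, -0.59 to -0.49, -0.96 to -0.92 and -0.37 to -0.33 when libraries were left out. Cd40 ranged from -0.11 to -0.06 and lost its call without thrombocytopenic replicate 2 (-0.057). Icosl ranged from 0.10 to 0.19 and lost its call without control replicate 2 (0.12), which left 1 to 2 members higher and 3 to 4 lower. The cause was not tested. Pdcd1lg2 passed under none of them (adjusted p 0.055 to 0.389). With a replicate block, 2679 genes were higher and 2723 lower, against 2792 and 2834, and no member changed its call. Libraries with the same number did not deviate together (correlations of -0.035, -0.073 and -3.9e-05). No pairing by number was seen, but with 3 libraries per group this check cannot exclude it. All 4 ratios kept their direction without each library and with 1 added to each count. Tested genes of the partner lists and of the cell marker lists changed call in 45 of 1699 combinations of gene and setting, and none reversed. Depth limits Pdcd1lg2 most, with 198 and 132 counts in all.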

Other observations

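Of the protein-coding genes next to the members in the RefSeq order (up to 2 on each side, chosen by position after the members' values were seen), 17 were tested and 8 called, 47.1%, near the 45.1% over all genes. Plgrkt, before Cd274, and Ric1, after Pdcd1lg2, had log2 fold changes of -0.04 (SE 0.040) and -0.06 (SE 0.031), against -0.35 for Cd274. Adprh and Timmdc1, on either side of Cd80, were at -0.01 and -0.15, and Ncoa5, before Cd40, was at -0.03; none of these 3 passed. Beside Icosl, Dnmt3l, a gene of a DNA methyltransferase cofactor, rose from 11.6 ± 0.824 to 16.7 ± 0.885 CPM (log2 fold change 0.53; edgeR adjusted p = 7.6e-09). After Cd83, Dtnbp1 is the second protein-coding gene and fell from 57.7 ± 2.37 to 38.8 ± 1.39 CPM (-0.57), a difference close in size to that of Cd83, while Jarid2, which lies between them, rose by 0.09 on the log2 scale. The genes next to Cd86, Casr and Ildr1, did not pass the filter on low counts. Slc15a2, the second protein-coding gene after Cd86, fell from 2.20 ± 0.0975 to 1.56 ± 0.196 CPM (-0.51; edgeR adjusted p = 0.022). Stfa3, the second before Cd86, was not tested.

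The spread of single members between libraries of a group also differed. It was scaled to counting noise, where 1 is the variance that counting alone gives. On this scale it was 0.524 for Cd86, 2.5 for Cd80, 9.79 for Cd274, 12.4 for Cd40 and 14.4 for Icosl. The median over the genes tested was 1.57. The scale grows with the number of counts, so it does not rank genes by relative spread. SD over mean was 3.47% in thrombocytopenic and 0.596% in control libraries for Cd40. For Cd80 it was 6.99% and 3.06%.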
